A study of Mus musculus with 4 samples.

Results

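Gse1, Prex1, Fgfr2, Camta1 and Nav2 are 5 long mouse genes, out of 21755 autosomal and X-linked protein-coding genes, whose loci held many open chromatin sites away from promoters in natural killer (NK) cells. They were selected on the measured number of such sites, so their high counts are a description of the choice and are given without a test. Open chromatin was mapped by DNase-seq, in which the nuclease DNase I cuts accessible DNA, and clusters of cuts are called as peaks. Stretches inside open DNA that are spared from cutting are called as footprints, the trace left by bound protein. The 4 libraries, replicates 1 to 4, form 1 group of primary NK cells from virgin female B6CASTF1/J mice aged 2 months, first-generation hybrids between the C57BL/6J and CAST strains. No treatment is labelled and no conditions were compared. The labels state neither the tissue nor the sort, and the 4 libraries share 1 donor identifier, so each SD measures the spread between libraries, part of which may be technical.

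Open sites away from promoters include enhancers, which bind tissue-specific transcription factors and act on promoters at a distance, and insulators, which bind CTCF and help to fold chromatin into loops. NK cells are cytotoxic innate lymphocytes whose open chromatin is rich in sites for RUNX, ETS and T-box factors. Gse1 encodes a coiled-coil protein of the LSD1, CoREST and histone deacetylase corepressor complex. Prex1 encodes a guanine nucleotide exchange factor that activates the GTPase Rac downstream of the lipid PIP3 and G protein beta-gamma subunits, and is best known from neutrophils. Fgfr2 encodes a receptor tyrosine kinase for fibroblast growth factors, known from epithelium and skeleton. Camta1 encodes a calmodulin-binding transcription activator best known from brain. Nav2 encodes neuron navigator 2, a cytoskeletal protein of growing axons.

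A locus here is the annotated gene plus 25 kb on either side. Peaks of the 4 libraries that touched or overlapped were merged into regions. A region was recurrent with a peak in at least 3 libraries, and distal if it kept more than 1 kb away from the annotated 5' ends of all protein-coding genes. On this count Gse1 had 35 distal recurrent regions, Fgfr2 30, Prex1 26, Nav2 21 and Camta1 20, which makes 132 in all. The 5 are not the top 5 by this count: Foxp1, with 25, stood above Nav2 and Camta1, Arhgef3, with 21, was level with Nav2, and Arid1b, with 20, was level with Camta1. The read-through gene Gm20388 had 178, but its annotated body contains the whole of Gse1.

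Counts per 100 kb gave another order, since the loci differ in length by more than an order of magnitude. The Prex1 locus of 197 kb had 13.2 distal recurrent regions per 100 kb, and the Gse1 locus of 403 kb had 8.69. Nav2 followed with 2.79 over 751 kb, Camta1 with 2.01 over 995 kb and Fgfr2 with 0.996 over 3011 kb. The median over all protein-coding loci was 1.24 per 100 kb, and over the 5000 loci of at least 100 kb it was 0.843. A higher density than that of Prex1 was found in 129 of all loci (0.593%), and a higher one than that of Gse1 in 665 (3.06%). By contrast, 27.8% of loci were denser than Nav2, 33.1% denser than Camta1 and 53.2% denser than Fgfr2. Among the loci of at least 100 kb these shares were 17.7%, 24.9% and 42.2%, with 0.1% for Prex1 and 0.96% for Gse1. The high count at Fgfr2 therefore came with a density close to the 0.897 per 100 kb of the genome.

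In the single libraries, the Prex1 locus had 17.2, 17.7, 24.3 and 14.7 peaks per 100 kb in replicates 1 to 4, a mean of 18.5 ± 4.10 (SD, n = 4). The Gse1 locus had 9.43, 9.93, 14.6 and 9.18 peaks per 100 kb, a mean of 10.8 ± 2.58. Both were above every library's genome-wide value in all 4 libraries. Nav2 had 3.46, 3.33, 6.79 and 2.26 peaks per 100 kb, Camta1 had 3.02, 2.92, 4.02 and 2.21, and Fgfr2 had 1.89, 2.52, 3.35 and 1.76. The genome as a whole had 1.67, 1.80, 2.63 and 1.38 peaks per 100 kb. Within each library, peak density relative to that library's genome was 10.01 ± 0.607 times at Prex1, 5.85 ± 0.552 times at Gse1, 2.04 ± 0.405 times at Nav2, 1.64 ± 0.115 times at Camta1 and 1.27 ± 0.110 times at Fgfr2. In this order the neighbours Nav2 and Camta1 differed by less than 1 SD, and the other neighbours by more.

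Replicate 3 was the highest of the 4 libraries at every locus and in the genome, and replicate 4 the lowest. Replicate 3 had 69144 peaks in the longer of its lists, against 44092, 47464 and 36247 in replicates 1, 2 and 4. The peak lists do not give read numbers, so the depth is unknown. Of 10 NK cell marker promoters, 7, 7, 10 and 6 had a peak in replicates 1 to 4, with summed signals of 22.2, 23.8, 61.1 and 21.4. Ncr1, Il2rb, Prf1, Nkg7, Gzmb and Eomes had one in every library, and Klrb1c and Gzma only in replicate 3. Of 6 T cell promoters 1, 2, 1 and 1 had a peak, with Cd3e, Cd3d, Cd4 and Cd8a at 0 throughout, and their summed signal ranged from 0.505 to 1.12. Of 5 B cell promoters 3, 3, 2 and 3 had one, with a summed signal from 1.27 to 3.59. Of 5 myeloid promoters only Itgax had a peak, in replicate 3, with a signal of 1.45, and Csf1r, Lyz2, Cd14 and Mpo were at 0. Of the 4 promoters of other innate lymphoid cells, Gata3 had a peak in 1 library (0.665), and Il1rl1 and Il23r were at 0. The red cell promoters of Hbb-bs and Klf1 were at 0. The part of other cells, or of depth, in the peaks of the 5 loci was not tested.

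**Figure D1:**
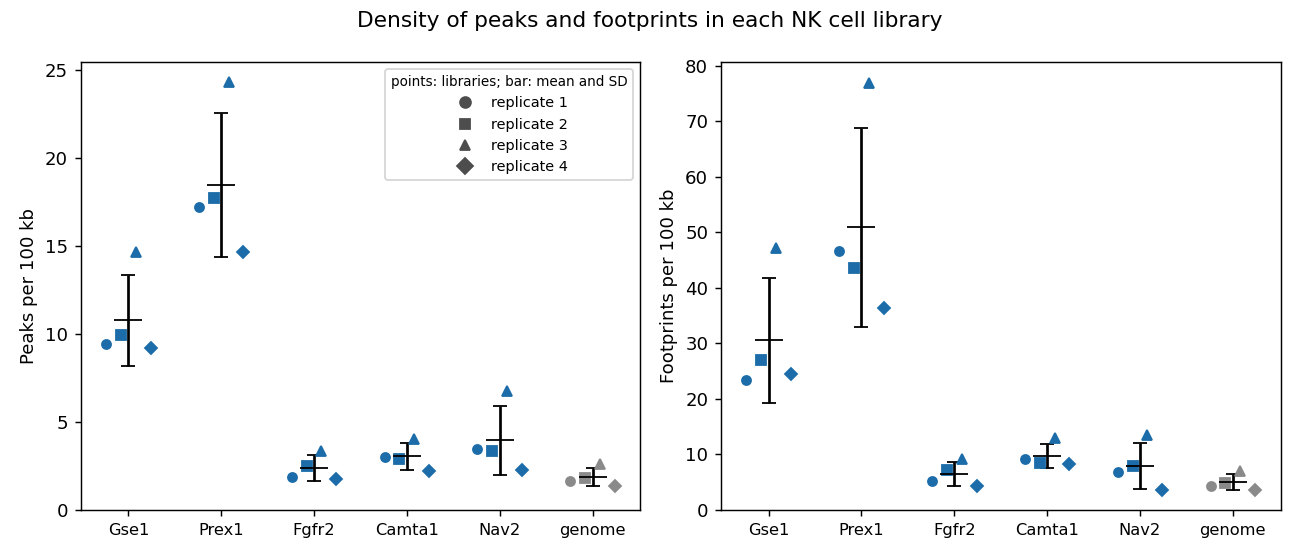
Peaks (left) and footprints (right) per 100 kb in each of the 4 NK cell libraries at the 5 loci, with the genome at the right end of each axis. Points are libraries, and bars give the mean and SD; Prex1 and Gse1 lie above the genome in every library, and replicate 3 is the highest point of each column.

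No other protein-coding gene overlaps the body of Prex1 (ENSMUSG00000039621.13, minus strand, chr2:166566342-166713832 on mm10, 147 kb), and the principal transcripts span all of it. Its promoter was open in all 4 libraries, with a peak signal of 6.42, 8.42, 18.2 and 9.42 in replicates 1 to 4 (mean 10.6 ± 5.22, SD, n = 4). The signal is the authors' value for a peak, whose unit is not stated. Of the 26 distal regions, 20 lay in introns, 5 in the flank past the 3' end and 1 in the upstream flank. Introns held them along the gene, with 12 regions before its midpoint and 8 after it, and the largest gap between neighbours was 20.02 kb. The densest 20 kb, from 39.8 to 58.8 kb past the 5' end, held 8 regions.

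The strongest distal region of Prex1 lay 2.25 kb past the 3' end of the gene, at 150 kb from its 5' end, with signals of 4.42, 3.98, 7.63 and 2.90 in replicates 1 to 4. The next, in an intron at 103 kb, had 3.06, 2.81, 8.55 and 3.90. The third, in an intron at 5.31 kb, had 2.46, 2.50, 7.04 and 1.91. All 3 had their highest signal in replicate 3. The first 2 are shown because they differ in what their footprints cover. Letters here and at the other loci are the plus strand of GRCm38.p6 (mm10), the C57BL/6J reference of RefSeq, which need not match the CAST copy. Capitals mark bases in a footprint in at least 3 libraries.
Prex1 3' flank, chr2:166563981-166564200: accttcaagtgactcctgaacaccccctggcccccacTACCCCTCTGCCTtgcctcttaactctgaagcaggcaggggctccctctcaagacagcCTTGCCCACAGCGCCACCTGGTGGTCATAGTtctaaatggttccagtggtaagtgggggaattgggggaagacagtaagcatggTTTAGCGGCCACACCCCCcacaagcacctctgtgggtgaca
Prex1 intron, chr2:166610321-166610620: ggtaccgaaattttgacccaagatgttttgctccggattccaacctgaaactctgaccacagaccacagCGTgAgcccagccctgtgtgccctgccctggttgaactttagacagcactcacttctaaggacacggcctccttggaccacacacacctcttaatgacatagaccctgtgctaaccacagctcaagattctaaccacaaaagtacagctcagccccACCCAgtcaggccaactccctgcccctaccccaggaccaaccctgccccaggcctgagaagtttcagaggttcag
In the 3' flank region, 62 bases in 3 stretches were footprinted, and the middle stretch covered a match to the CTCF motif in full. The KLF pattern CACACCC was covered as well. In the intronic region only 9 bases were in recurrent footprints, although the window held 5 matches to the RUNX core, read as ACCACA on the printed strand, and 1 to the T-box core (CACACCT on this strand), none of them in a footprint shared by 3 libraries.

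Gse1 (ENSMUSG00000031822.20, plus strand, chr8:120228456-120581390, 353 kb) was closed at its annotated 5' end, with no peak there in any of the libraries. The value of a start is here the strongest peak within 1 kb of it. The first principal transcript with a peak was Gse1-201, which starts 260 kb into the annotated gene. The strongest peak near it, just downstream of the start, had signals of 4.52, 5.05, 9.29 and 6.88 in replicates 1 to 4 (mean 6.44 ± 2.15, SD, n = 4). The region across the start itself had 1.16, 1.85, 3.11 and 1.58. The principal starts Gse1-203 and Gse1-202, at 307 and 309 kb, had mean signals of 3.10 ± 1.25 and 2.64 ± 0.552. Being away from the annotated 5' end, these starts count as distal here, and 9 of the 35 distal regions of Gse1 lay within 1 kb of the start of some annotated transcript. The regions crowded toward these starts, with 11 before the midpoint of the gene, 22 after it and 2 past its 3' end. The densest 20 kb held 8 regions, at 301 to 311 kb.

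The strongest distal region of Gse1, at 310 kb, had signals of 6.33, 7.95, 13.7 and 9.78. It was followed by the region just downstream of the Gse1-201 start, at 261 kb, and by a region 1.31 kb before that start, at 259 kb, with 3.82, 4.96, 10.8 and 4.74. Replicate 3 was again the highest in each. The strongest lies in an intron within 1 kb of the annotated starts of the microRNA gene Mir7687 and of 1700016A09Rik, and is shown as the highest distal site of the locus.
Gse1 intron, chr8:120538661-120538960: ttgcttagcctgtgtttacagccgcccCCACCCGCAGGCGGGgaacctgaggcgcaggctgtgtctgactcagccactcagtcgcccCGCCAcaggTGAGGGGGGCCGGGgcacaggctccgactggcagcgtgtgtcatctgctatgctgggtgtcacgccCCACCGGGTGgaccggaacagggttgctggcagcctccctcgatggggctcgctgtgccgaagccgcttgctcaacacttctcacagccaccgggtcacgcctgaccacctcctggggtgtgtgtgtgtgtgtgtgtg
Recurrent footprints covered 44 of the 300 bases in 4 stretches. A match to the AP-1 core (TGACTCA) and one to the KLF core in a GT repeat at the end both lay outside them. Measured over the principal transcripts plus 25 kb, an extent of 143 kb, Gse1 held 22 distal regions or 15.4 per 100 kb, above the 13.2 of Prex1. The 22 include all 9 regions within 1 kb of a transcript start, against 2 of 26 at Prex1. Away from every transcript start, and over the annotated gene plus 25 kb, Gse1 had 6.45 per 100 kb and Prex1 12.2.

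Nav2 (ENSMUSG00000052512.17, plus strand, chr7:48908716-49610090, 701 kb) had its 21 distal regions spread out, with 18 in introns, 1 upstream and 2 past the 3' end, in the neighbouring homeobox gene Dbx1. With the gene divided into 10 equal parts, each part held between 1 and 3. The annotated 5' end had a weak peak of 0.693, 0.554 and 1.74 in replicates 1 to 3 and none in replicate 4. The principal start Nav2-204, 50.4 kb in, had 0.611, 0.731 and 0.538 in replicates 1, 3 and 4 and none in replicate 2. A stronger site lay just before the principal start Nav2-216 in the middle of the gene, 338 kb in, with 2.19, 2.76, 3.59 and 2.98 (mean 2.88 ± 0.580, SD, n = 4). It was the highest of the 3 starts in all 4 libraries.

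Signals at Nav2 were low, with a median over its distal regions of 0.913, against 1.19 over all distal recurrent regions. Its strongest distal region, in an intron at 185 kb, had 2.79, 2.40, 8.53 and 3.26, so that replicate 3 stood far above the others. The region at 29.0 kb had 2.22, 1.62, 3.72 and 1.68. The first is shown for its pattern of AP-1 cores.
Nav2 intron, chr7:49093631-49093930: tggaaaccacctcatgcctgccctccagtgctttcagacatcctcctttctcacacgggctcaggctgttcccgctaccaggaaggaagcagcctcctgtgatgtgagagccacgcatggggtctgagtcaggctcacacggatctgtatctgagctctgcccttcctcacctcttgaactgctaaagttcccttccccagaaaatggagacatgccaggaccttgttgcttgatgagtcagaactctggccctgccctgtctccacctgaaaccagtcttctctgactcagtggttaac
The 300 bases shown, the middle of a region of 520 bases, held 3 matches to the AP-1 core (TGAGTCA at bases 125 to 131 and 235 to 241, TGACTCA at bases 285 to 291, counted from the 5' end as printed). None of the bases shown was in a footprint in at least 3 libraries. After merging footprints that touch or overlap, the whole region had 2 found in at least 3 libraries, whose positions are not given here.

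Camta1 (ENSMUSG00000014592.20, minus strand, chr4:150917322-151861876, 945 kb) combined an open promoter with a long interior stretch without distal recurrent regions. The promoter signal was 10.7, 14.0, 19.5 and 14.3 in replicates 1 to 4 (mean 14.6 ± 3.65, SD, n = 4), the highest mean at an annotated 5' end among the 5 genes, within the spread of that at Prex1. Only 2 distal regions lay before the midpoint, and a gap of 426 kb separated the regions at 153 and 579 kb. The last of 10 equal parts of the gene held 10 and the 3' flank 3 more. Many of these lay in other genes. Tnfrsf9, the costimulatory receptor 4-1BB of activated T and NK cells, held 4, and Park7, a redox-protective protein linked to Parkinson disease, held 3. The circadian gene Per3 held 2. The RefSeq gene model of Camta1 is shorter at the 3' end (802 kb), and with 25 kb on either side it held 7 distal regions, or 0.821 per 100 kb.

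Among its 3 strongest distal regions, the first lay within 1 kb of 6 annotated transcript starts of Park7, in the 3' flank, with signals of 8.97, 11.6, 16.1 and 16.4 in replicates 1 to 4. It was the strongest of all 132 regions, and unlike most it was highest in replicate 4. The second, in a Camta1 intron at 897 kb, had 4.44, 4.55, 7.36 and 2.78. The third, in the body of Tnfrsf9 and within 1 kb of the start of its transcript Tnfrsf9-203, had 2.49, 3.03, 7.46 and 3.56. The Park7 and Tnfrsf9 regions are shown because they belong to neighbouring genes.
Park7 start, chr4:150909781-150910080: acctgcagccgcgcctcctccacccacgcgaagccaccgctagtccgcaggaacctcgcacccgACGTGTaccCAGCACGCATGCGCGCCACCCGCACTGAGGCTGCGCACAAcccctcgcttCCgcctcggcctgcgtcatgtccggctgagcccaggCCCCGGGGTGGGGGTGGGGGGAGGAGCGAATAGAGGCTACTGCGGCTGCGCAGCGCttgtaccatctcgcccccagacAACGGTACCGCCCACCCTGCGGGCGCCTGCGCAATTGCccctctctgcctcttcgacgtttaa
Tnfrsf9 body, chr4:150924361-150924660: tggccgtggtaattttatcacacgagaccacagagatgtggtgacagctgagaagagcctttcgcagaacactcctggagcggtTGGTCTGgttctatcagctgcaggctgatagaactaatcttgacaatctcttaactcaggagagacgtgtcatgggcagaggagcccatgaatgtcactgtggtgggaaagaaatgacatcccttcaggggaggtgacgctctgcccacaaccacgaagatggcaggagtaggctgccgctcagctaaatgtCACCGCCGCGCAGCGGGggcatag
At Park7, recurrent footprints covered 142 of 300 bases in 5 stretches, the most of the sequences shown, and none of the 12 motifs searched had a match. At Tnfrsf9 they covered 24 of 300 bases. Here the RUNX core matched 3 times (ACCACA once and TGTGGT at 2 places) and the E-box CAGCTG 2 times, all outside recurrent footprints.

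Fgfr2 (ENSMUSG00000030849.18, minus strand, chr7:130162451-133123350) is annotated over 2961 kb because of a single transcript, Fgfr2-217, whose start lies 2857 kb before the principal starts. The principal transcripts span 104 kb. Over that extent plus 25 kb there was no recurrent region, no footprint in any library, and 1 peak, in replicate 3. None of the principal starts Fgfr2-215, Fgfr2-226, Fgfr2-207 and Fgfr2-211 had a peak in any library. The peak at the annotated 5' end, with 1.87, 2.23, 3.25 and 1.71 in replicates 1 to 4, lies at the start of the corepressor gene Ctbp2 as well. The 30 distal regions counted for Fgfr2 thus lay outside the extent of its principal transcripts and outside that of its RefSeq model (104 kb).

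The annotated span overlaps 30 other protein-coding genes, and 18 of the 30 distal regions lay in the body of one. Tacc2, a centrosomal coiled-coil gene, held 5, Chst15, a chondroitin sulfate sulfotransferase, held 4, and Fam53b and Nsmce4a, a subunit of the SMC5 and SMC6 complex, held 3 each. Lhpp held 2 and Ctbp2 held 1. A gap of 1054 kb without a distal region lay at 1241 to 2295 kb from the annotated 5' end. The strongest distal region, in Fam53b at 388 kb, had signals of 3.89, 4.29, 7.54 and 4.61. The next, in no other coding gene, lay at 571 kb with 4.23, 4.99, 5.89 and 3.64, and the third, in Nsmce4a at 2576 kb, had 4.01, 4.80, 5.44 and 4.10. The first is shown because its footprint, like that in the flank of Prex1, lies on a CTCF motif.
Fam53b body, chr7:132735261-132735460: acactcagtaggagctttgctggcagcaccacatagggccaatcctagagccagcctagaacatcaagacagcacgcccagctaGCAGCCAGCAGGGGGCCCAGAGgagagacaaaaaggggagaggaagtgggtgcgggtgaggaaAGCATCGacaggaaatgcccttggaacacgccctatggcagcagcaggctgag
The larger of its 2 recurrent footprints covers the match to the CTCF motif in full, while the RUNX match (ACCACA) lies outside.

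**Figure D2:**
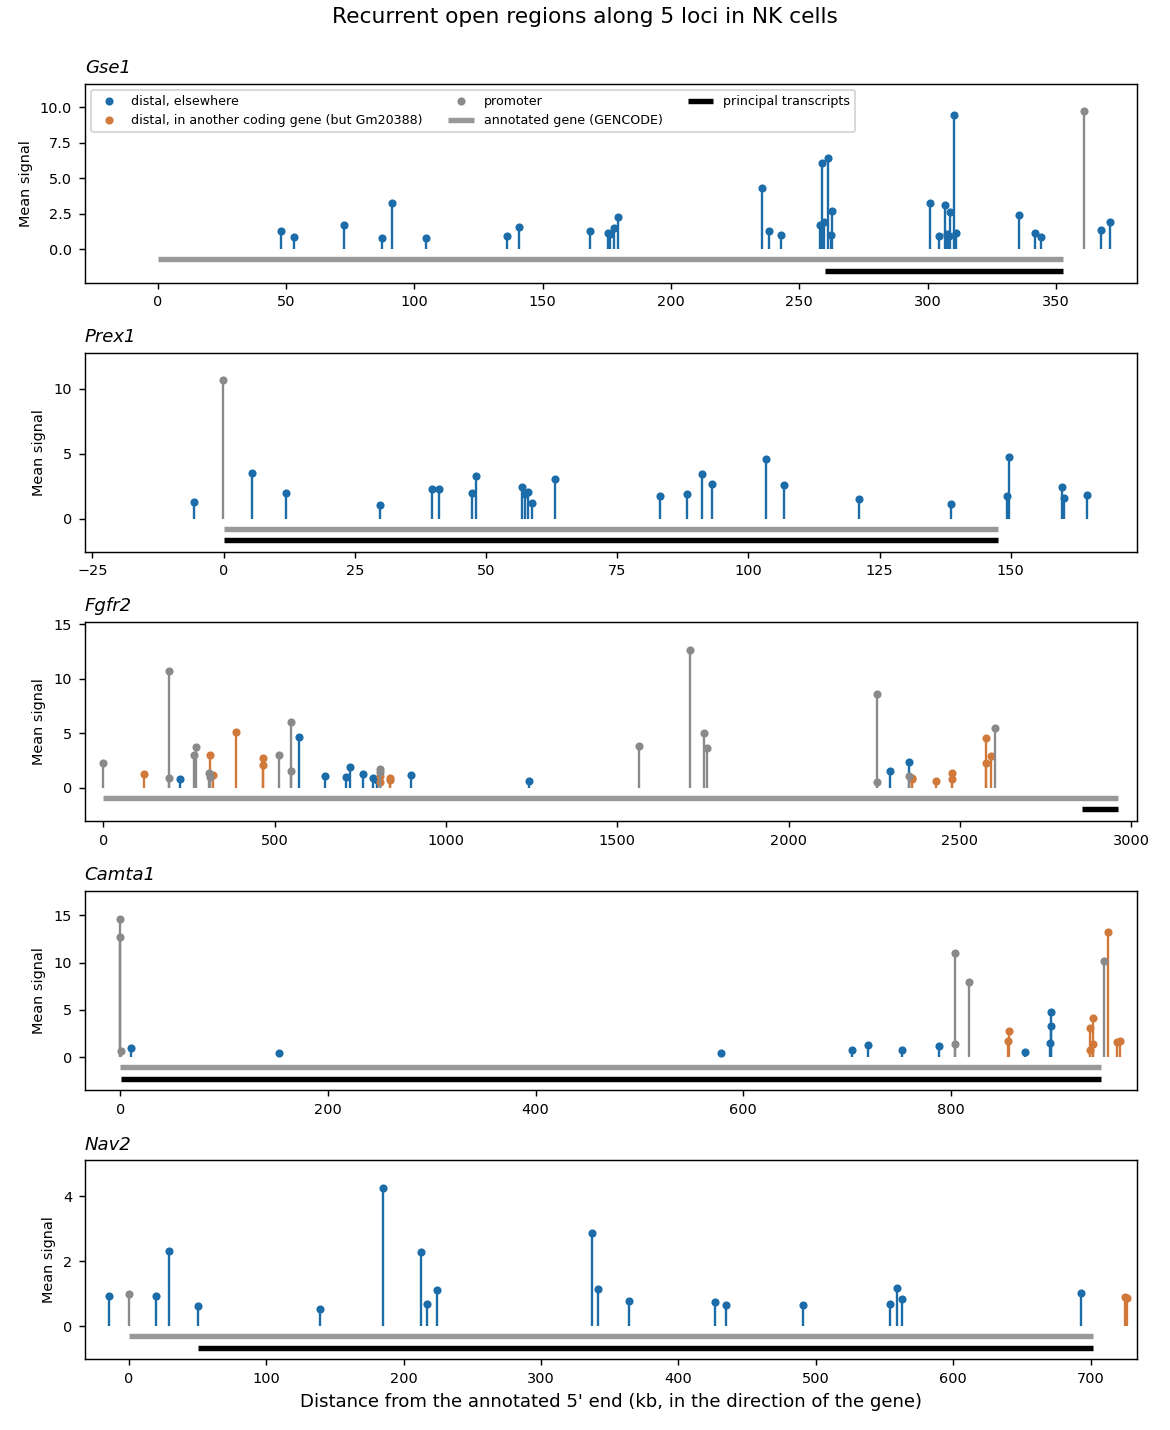
Mean peak signal (y axis, over the libraries with a peak) of recurrent regions against the distance from the annotated 5' end in kb, in the direction of each gene. Distal regions are blue or, inside another coding gene other than Gm20388, orange, and promoter regions are grey; bars give the annotated gene and its principal transcripts. The 30 distal regions of Fgfr2 all lie away from its principal transcripts, and those of Camta1 gather at its 3' end.

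How a gene is bounded changed the density of 3 of the genes by over 1.5 times. Prex1 stayed at 13.2 per 100 kb with the annotated gene, the principal transcripts and the RefSeq model. Gse1 had 8.69 with the annotated gene and with RefSeq, and 15.4 with the principal transcripts. The 15.4 includes the 9 Gse1 regions near transcript starts, which count as distal here. Nav2 had 2.79, 2.71 with the principal transcripts and 2.71 with RefSeq. Camta1 had 2.01, 2.01 with the principal transcripts and 0.821 with RefSeq, and Fgfr2 had 0.996, 0 and 0. Regions in the body of another protein-coding gene, other than the read-through Gm20388, were then left out. This gave 1.11 at Camta1, 0.399 at Fgfr2 and 2.53 at Nav2, and left Prex1 and Gse1 as they were. These counts were still divided by the length of the whole locus, with the other genes in it. They are therefore not densities of the sequence outside other genes. Over the 5 loci, 29 of 132 distal regions lay in another coding gene and 31 lay within 1 kb of the start of some annotated transcript, against 20.3% of all distal recurrent regions near such a start. Introns of the 5 genes as annotated held 117 of the 132, among them all 30 of Fgfr2. Shares over all distal recurrent regions were not computed for introns or for other coding genes.

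**Figure D3:**
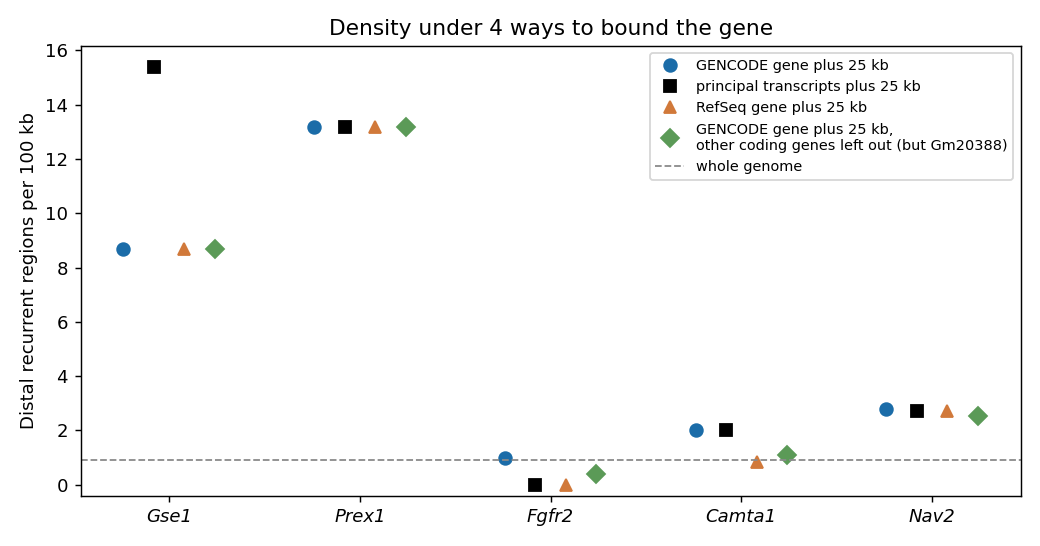
Distal recurrent regions per 100 kb (y axis) at each gene under 4 ways to bound it, with the genome as the dashed line. Where other coding genes are left out, their regions are dropped but the length of the whole locus is kept. Prex1 does not move, Gse1 is at 15.4 over its principal transcripts, and Fgfr2 is at 0 with the principal transcripts or the RefSeq model. The 15.4 of Gse1 counts regions near transcript starts as distal.

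How often a distal site was found again differed between the loci. Of their merged distal regions, 55.6% were recurrent at Gse1, 57.8% at Prex1, 31.9% at Fgfr2, 62.5% at Camta1 and 42.0% at Nav2, against 41.0% of all, and these shares bear on the choice of the loci. Of the 132 recurrent ones at the 5 loci, 97 (73.5%) had a peak in all 4 libraries, against 67.2% of all distal recurrent regions. By locus these were 25 of 35 at Gse1, 23 of 26 at Prex1, 20 of 30 at Fgfr2, 15 of 20 at Camta1 and 14 of 21 at Nav2. In 35 cases a library lacked the peak, and 22 of these were in replicate 4. In 11 of the 35 the library still listed a base inside the region with a deposited FDR value below 0.05, down to 1.50e-05. Those values are q-value or p-value like numbers. A further 130 merged regions at the loci were found in 1 library, and 102 of them (78.5%) came from replicate 3, against 69.0% genome-wide.

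Signals were higher in replicate 3 to different degrees. Over the distal regions with a peak in all 4 libraries, the median signal at Prex1 was 1.76, 1.76, 3.86 and 1.65 in replicates 1 to 4. At Gse1 it was 1.40, 1.73, 2.59 and 1.25, and at Nav2 0.993, 1.03, 1.21 and 0.678. Replicate 3 was thus the highest at each. The ratio of replicate 3 to the mean of the other libraries, region by region, had a median of 2.23 at Prex1, 1.88 at Camta1, 1.81 at Gse1, 1.57 at Fgfr2 and 1.40 at Nav2. Over the 15864 distal regions with a peak in all 4 libraries the median was 1.59, with quartiles of 1.28 and 2.11. All 23 regions of Prex1 and all 25 of Gse1 were higher in replicate 3 than in the mean of the others, as were 19 of 20 at Fgfr2, 14 of 15 at Camta1 and 13 of 14 at Nav2, against 14624 of the 15864 regions overall. The NK cell marker promoters listed above also had their largest summed signal in replicate 3, and the part of depth or of cell makeup in these ratios was not tested.

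**Figure D4:**
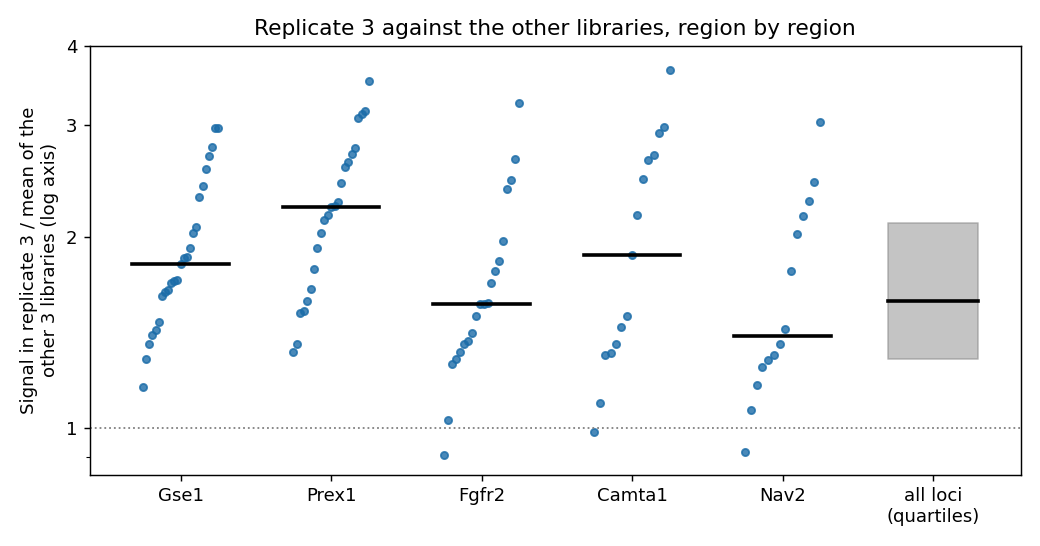
Signal in replicate 3 divided by the mean of the other 3 libraries (log axis) for each distal region with a peak in all 4 libraries. Points are regions, black lines medians, and the grey box the quartiles of all such regions; the median of Prex1, 2.23, lies above the upper quartile of 2.11, and that of Nav2, 1.40, is the lowest of the 5.

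Footprints followed the peaks. Per 100 kb, Prex1 had 46.6, 43.5, 77.0 and 36.5 footprints in replicates 1 to 4 (mean 50.9 ± 17.9, SD, n = 4) and Gse1 had 23.3, 27.1, 47.2 and 24.6 (mean 30.5 ± 11.2). Means at the other loci were 9.70 ± 2.21 at Camta1, 7.92 ± 4.10 at Nav2 and 6.47 ± 2.20 at Fgfr2, against 4.97 ± 1.46 in the genome. Camta1 and Nav2 stood in the reverse of their order by peaks, a difference within the spread between libraries. Between 81.5% and 93.4% of the footprints at a locus, as means over libraries, lay wholly in a peak of the same library, against 86.7% in the genome. Counting only merged footprints found in at least 3 libraries gave 21.8 per 100 kb at Prex1, 13.6 at Gse1, 5.23 at Camta1, 3.02 at Fgfr2 and 2.53 at Nav2, against 2.40 in the genome.

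At least 1 such footprint lay in 96 of the 132 distal regions (72.7%), against 63.2% of all distal recurrent regions. The share was highest at Prex1, with 23 of 26, and lowest at Nav2, with 12 of 21. Gse1 had 25 of 35, Camta1 16 of 20 and Fgfr2 20 of 30. A distal region held on average 3.10 ± 0.787 footprints at Prex1 and 2.70 ± 0.577 at Gse1, and between 2.28 and 2.36 at the other loci (SD over libraries). Prex1 regions were also the strongest and widest as medians, with a signal of 2.03 and 310 bp, against 1.19 and 240 bp over all distal recurrent regions.

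Short sequence patterns were counted on both strands in the central 150 bp of the distal regions. A match is only a run of letters, and these shares describe the regions with no test. The RUNX core TGTGGT was in 26 of the 132 regions (19.7%), against 20.8% of all distal recurrent regions. The ETS core CAGGAAG was in 23 (17.4%), against 13.5%, with 9 of the 23 at Prex1 and 7 at Gse1. The T-box core AGGTGTG was in 7, against a share of 4.25% of all, and the E-box CAGCTG in 19, against 11.8%. Among patterns of factors that respond to signals, AP-1 (TGANTCA) was in 10, against 6.69% of all, NFAT (TGGAAA) in 12, against 10.5%, and IRF (GAAA, any 2 bases, GAAA) in 7, against 2.1%. NF-kB (GGGAA, any base, T, any base, CC) was in 1, against 0.944%, and STAT (TTCCNGGAA) in 1, against 0.474%. The core AGATAA of GATA factors was in 3, against 4.54%, and KLF (GGGTGTG) in 10, against 5.74%, with 6 of the 10 at Gse1. AP-1 and E-box patterns read alike on both strands, and the ETS, NFAT, STAT and NF-kB patterns share the letters GGAA, so 1 stretch can match more than 1 of them.

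Coverage by footprints differed from pattern to pattern. The 12-letter motif of the insulator protein CTCF was in 20 of the 132 regions (15.2%), against 12.7% of all, and was spread over the loci with 3 to 5 regions at each. At least 80% of the match was covered by a recurrent footprint in 17 of these 20, against 76.3% of such regions genome-wide. For the RUNX core the same held in 2 of 26, against 16.8%, and for the ETS core in 2 of 23, against 7.39%. It held for NFAT in 3 of 12, against 9.48%, for IRF in 2 of 7, against 13.7%, and for the E-box in 1 of 19, against 13.4%. The 1 NF-kB match was covered, against 13.9%. No T-box, AP-1, GATA, KLF or STAT match in the central 150 bp was covered, against 3.57% (STAT) to 15.4% (KLF). The covered KLF pattern in the 3' flank of Prex1 lies outside that window. These patterns have 6 to 10 letters, so their coverage is not like for like with that of the CTCF motif. GC content of the central 150 bp had a median from 53.7% at Fgfr2 to 59.3% at Gse1, against 52.7% over all distal recurrent regions.

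Among paralogs of the 5 genes, the median over Prex2, Fgfr1, Fgfr3, Fgfr4, Camta2, Nav1 and Nav3 was 0.278 per 100 kb, against 1.24 over all loci. Fgfr4 with 4.54, Nav1 with 2.69 and Fgfr1 with 1.78 were above Fgfr2, the lowest of the 5 genes. Unlike Prex1, its paralog Prex2 had 1 distal region in 360 kb (0.278 per 100 kb). A list of exchange factors and the GTPases Rac1 and Rac2 had a median of 1.72 over 7 genes, all below Prex1 and 6 above Fgfr2. In that group Rac2, the Rac GTPase of blood cells, had 9.43, Arhgef3 6.19, Vav1 5.05, Tiam1 1.72, Dock8 1.19 and Dock2 1.15. The 8 partners of Gse1 in its corepressor complex had a median of 2.43, all below the 8.69 of Gse1, with Hdac1 at 6.53, Rcor3 at 3.35, Phf21a at 2.49, Rcor1 at 2.37 and Hmg20b at 1.84 above the lowest of the 5. Of the loci with a like count, Arhgef3 had 6.19 per 100 kb, Arid1b 4.96 and Foxp1 3.86.

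Likeness to other loci was taken as the distance between the log2(peaks per 100 kb + 1) of the 4 libraries, over 5000 loci of at least 100 kb. Nearest to Prex1 were Runx3, the RUNX factor of cytotoxic lymphocytes, with 16.8, 20.5, 25.2 and 15.8 peaks per 100 kb in replicates 1 to 4, and Coro1c, an actin-binding coronin. Runx3 was the closer of these, at a distance of 0.23. Timp2 and Ttc7 were nearest to Gse1, Cmss1 and Ppp6r3 to Nav2, Steap3 and A630089N07Rik to Camta1, and Smc1b and Xrn1 to Fgfr2, at distances from 0.03 to 0.12. The points share the libraries and their depth, so a small distance says only that the counts were alike.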

How the data were processed

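DNase-seq of 4 NK cell libraries was used. Per the deposited readmes, each library's lists were derived by the authors from its own alignments to mm10; no aligner or caller is named in the sources used here. In the peak lists deposited, each peak carries 1 signal value of the authors, with no unit stated. The deposited FDR file gives q-value or p-value like numbers for bases below 0.05, and the footprint lists carry a constant of 0.01 as p-value. The longer peak list and all footprints on the autosomes and X were counted, with an overlap of 1 bp. Genes came from GENCODE vM21; principal transcripts are those tagged APPRIS principal or CCDS. Numbers of reads are not given, so no counting intervals are given and the 4 libraries set the precision.

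The members and gene lists were chosen with earlier results of these data known. Named were, in each gene, the 3 strongest distal recurrent regions, the densest 20 kb, coding genes holding at least 3 of its distal regions, listed genes denser than the lowest member, and the 2 nearest loci; Per3, Lhpp, Ctbp2, Dbx1, Prex2 and the transcript starts were added after their values were seen. With 4 libraries and 1 group the smallest two-sided sign-flip p is 0.125, so no test of a difference was run; single libraries that stand apart were looked for by Dixon's ratio. A few listed genes are not reported here. Python 3.11.15, numpy 2.4.6, pandas 2.3.3, pysam 0.24.0 and samtools 1.23.1 were used. Merging and counting were tested on simulated data. Alternatives were other extents, peak lists, recurrence and distal rules, and leaving out each library.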

Additional observations from a re-analysis of the deposited data

Results flagged for a closer look

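In 6 of 37 results examined, 1 library lay far from the other 3, by the gap to its nearest neighbour over the range of the 4 libraries. Chance gives about 1 in 20 for a single result. The 37 results share the same 4 libraries and loci, so the 6 are not separate results and cannot be set against that share. In all 6 the library was replicate 3, the one with the most peaks, and it was the highest. At Gse1, replicate 3 had 14.6 peaks per 100 kb, with 9.18 to 9.93 in the others, and 47.2 footprints per 100 kb, with 23.3 to 27.1 in the others. The Gse1 region 1.31 kb before the Gse1-201 start had a signal of 10.8 in replicate 3, with 3.82 to 4.96 in the others. At Prex1, the region 5.31 kb past the 5' end had 7.04 in replicate 3, with 1.91 to 2.50 in the others. The median signal of the Prex1 distal regions found in all 4 libraries was 3.86 in replicate 3, with 1.65 to 1.76 in the others. At Nav2, the strongest distal region had 8.53 in replicate 3, with 2.40 to 3.26 in the others.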

How the results depend on the processing

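The median density of distal recurrent regions over the 5 genes, 2.79 per 100 kb, ranged from 2.79 to 3.46 when a library was left out and a peak was asked for in at least 2 of the other 3, a looser rule than 3 of 4. It was 1.86 with the shorter peak lists and with a peak required in all 4 libraries, 2.00 with an equal number of strongest peaks per library, 3.46 with a peak in at least 2, 2.40 away from every transcript start, and 1.11 outside other coding genes. In that last setting, which drops regions but keeps the length of the whole locus, Gse1 is at 0, since it lies inside the read-through gene Gm20388. With Gm20388 ignored the median was 2.53 and Gse1 kept 8.69; this setting and the RefSeq extents were chosen after seeing the data. Prex1 was the densest in all settings except the principal transcripts, and Fgfr2 the least dense in all except the setting that puts Gse1 at 0. The median peak density, 3.96 per 100 kb, was 3.02 to 4.53 without a library, and all its other alternatives were within 1 SD of the libraries. Median footprint density fell to 4.85 per 100 kb, against 9.70, when only footprints of a library were kept that shared at least 0.5 of their length with footprints of at least 2 others, counted per library and not after merging, and moved by less than 1 SD otherwise. Of the values of single genes, 33 of 80 distal densities, 45 of 50 peak densities and 39 of 50 footprint densities stayed within 1 SD. Over whole regions, 9 of 12 motif counts changed by more than 1.5 times, since the windows are longer. No paired analysis was possible because there is a single group. Depth is not given, so a site without a peak cannot be told from one below detection. Footprints carry no graded value, so no stricter set could be made.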

Other observations

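The annotated span of Fgfr2 also held 20 recurrent promoter regions, 1 of them shared by its annotated 5' end and Ctbp2. The strongest, at the shared start of Ikzf5, an Ikaros-family transcription factor, and Acadsb, a mitochondrial acyl-CoA dehydrogenase, had a mean signal of 12.7 ± 3.60 (SD, n = 4 libraries). The promoters of the deubiquitinase gene Zranb1 (10.7 ± 2.53), of Plekha1 (8.57 ± 1.78), of the ornithine aminotransferase gene Oat (6.01 ± 0.742) and of the arginyltransferase gene Ate1 (5.50 ± 0.487) followed. At the 3' end of Camta1, the promoters of the vesicle fusion gene Vamp3 (11.0 ± 3.38), of Park7 and Tnfrsf9 (10.1 ± 3.86) and of Per3 (7.94 ± 2.32) were open. These promoters were named after their values were seen.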
